A study of Mus musculus with 4 samples.

Results

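Long deletions, of 200 bp or more, were taken from a catalogue of deletions at 1 meiotic recombination hotspot on mouse chromosome 1. They were chosen by their deposited size in 4 tables, whatever their join, and entries that agreed in both edges (the first and the last deleted base) were counted as 1 distinct deletion. This gave 182 long deletions out of 659 in all, from 201 of 804 table entries. The other 477 distinct deletions, of under 200 bp, are called short deletions here. The size chose the members, so sizes are given as a description and were not tested.

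The DNA came from testicular cell suspensions of 3 C57BL/6 mice, 5 to 7 weeks old, with the genotype Mre11-/-, made with a conditional knockout allele. The labels name spermatocytes as the cell type and do not name the Cre that removed the allele. Each of 4 overlapping amplicons was made in 576 PCRs and sequenced as 1 library, so each group is 1 sample without a replicate, and a deletion cannot be assigned to a mouse. All 4 libraries carry the same genotype and 0 are controls. The values therefore describe the mutant and measure no effect of the genotype. The amplicons together cover chr1:33764688-33765556 (mm10), inside the span of Zfp451, a protein-coding gene of the zinc finger family. Whether this stretch is exonic or intronic was not analysed here.

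Meiotic cells cut their own DNA with SPO11 at hotspots, and the breaks are normally repaired by recombination with a homologous chromosome. MRE11, which forms a complex with RAD50 and NBS1, is a nuclease that trims the broken ends before recombination. Ends that are joined directly instead can lose sequence. The join may be blunt, may use a few identical bases present at both ends (microhomology, of which 1 copy is kept), or may hold inserted bases. A deletion can follow from 2 breaks on 1 molecule or from 1 break and loss of the sequence beside it. The tables record joins and not breaks, so these cannot be told apart here, and the edges, their pairing and their joins are described as measured.

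Most long deletions had 1 edge in a short central zone and the other edge about 200 to 340 bp away. The zone, 33764996 to 33765089 (94 bp), is the span of the left edge clusters that hold at least 8 long deletions, and was set after the edges had been seen. Its sequence with 10 bases on either side, rebuilt from the deposited reads on the plus strand at chr1:33764986-33765099, is shown because the left edges crowd there. Capitals mark the first deleted base of the 13 left edges that at least 3 long deletions used. The sequence below it, chr1:33765235-33765361 in mm10, holds the most used right edges. There capitals mark the last deleted base of the 14 right edges used by at least 3 long deletions.
central zone: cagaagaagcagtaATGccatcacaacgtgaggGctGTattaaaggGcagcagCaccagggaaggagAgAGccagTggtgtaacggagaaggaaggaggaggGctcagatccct
downstream stretch: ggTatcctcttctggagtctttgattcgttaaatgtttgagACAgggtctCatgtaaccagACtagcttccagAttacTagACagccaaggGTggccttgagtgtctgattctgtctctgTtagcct

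In 127 long deletions (69.8%, 95% exact Clopper-Pearson interval 62.5 to 76.4) the left edge lay in the central zone and the right edge downstream of it. In 30 (16.5%, 11.4 to 22.7) the right edge lay in the zone and the left edge upstream. In 25 (13.7%, 9.09 to 19.6) neither edge lay in the zone, and no long deletion had both edges there, since the zone is shorter than 200 bp. The 30 upstream deletions all came from amplicon 1, and the 127 downstream ones came almost wholly from amplicons 2 to 4. Libraries 1 to 4 held 2, 51, 52 and 40 downstream deletions, which were 5.26%, 89.5%, 94.5% and 80% of their long deletions.

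The position of each amplicon set part of this split. A library can show a long deletion only where both edges lie between its primers. Of the left edge positions that leave room for 200 bp and lie at least 20 bp inside the amplicon, the central zone held 48 of 336 in amplicon 1 (14.3%), 94 of 340 in amplicon 2 (27.6%), 94 of 338 in amplicon 3 (27.8%) and 87 of 335 in amplicon 4 (26.0%). In amplicons 2 to 4 the share of left edges in the zone was thus 3 times this share of positions or more. The zone was drawn around clusters of these same left edges, so an excess was built in and is no test. In amplicon 1 the zone held 94 of the 336 right edge positions (28.0%) and 30 of 38 right edges (78.9%). Amplicons 3 and 4 held 0 right edge positions in the zone and could not show upstream deletions.

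By their ends alone, amplicons 1 and 2 could both show deletions on either side within the stretch they share. At least 20 bp inside both, amplicon 1 had 12 long deletions, 6 of them upstream, 2 downstream and 4 with neither edge in the zone. Amplicon 2 had 11 there, 0 of them upstream, 6 downstream and 5 with neither. At least 60 bp inside both, amplicon 1 had 2 long deletions and amplicon 2 had 5, all with neither edge in the zone. The counts are small, and the depth of the libraries is unknown. In amplicon 2 the left edge nearest to the amplicon's left end was 117 bp away among long deletions and 81 bp away among all deletions, against 40 bp for both in amplicon 1. All 30 upstream deletions began at or before 33764854, left of every deletion called in amplicon 2. Whether deletions close to an end could be called in every library was not tested.

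**Figure D1:**
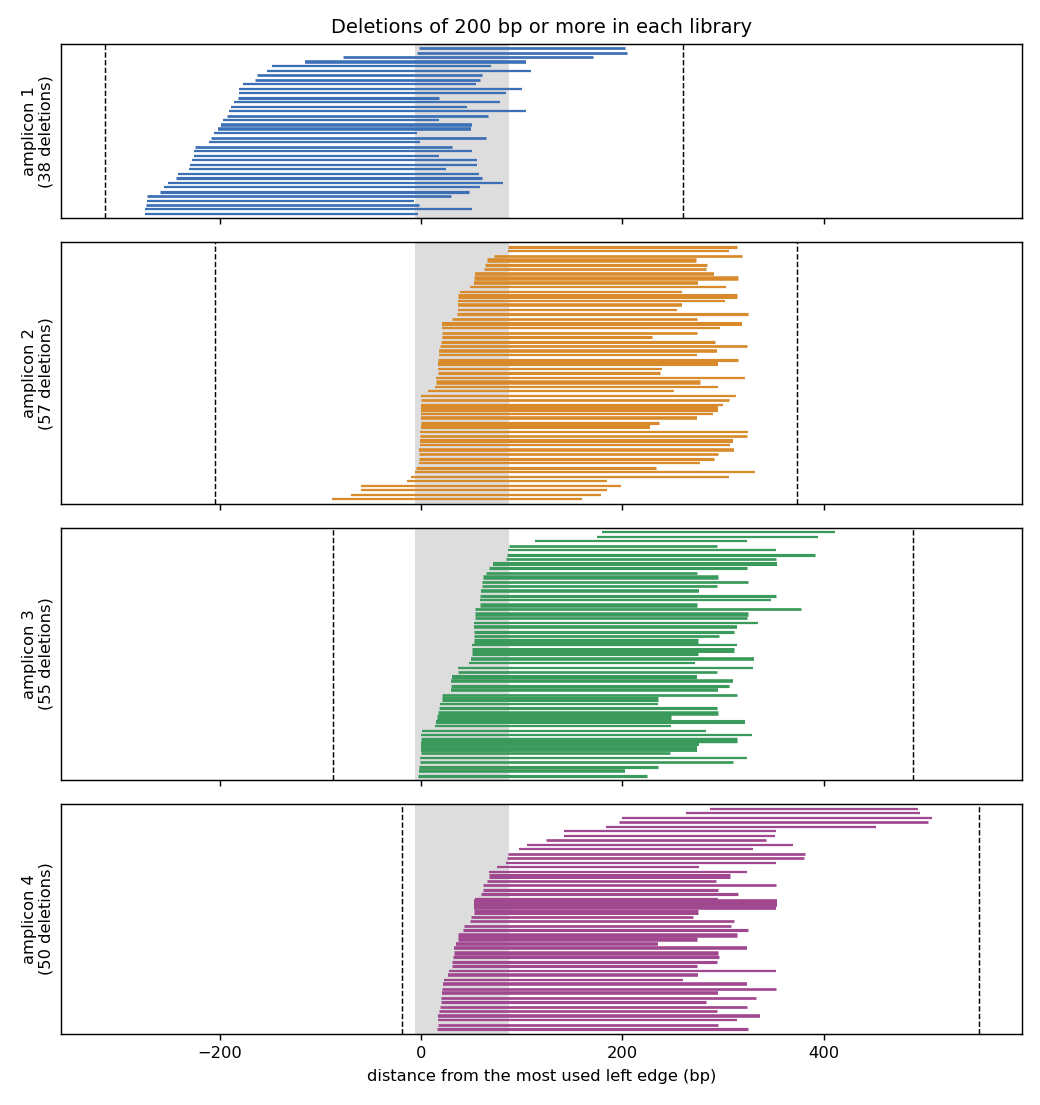
Each bar is 1 long deletion from its left to its right edge, in bp from the most used left edge, by library, with thicker bars for more molecules. Grey marks the central zone and dashed lines the amplicon ends. In amplicon 1 most bars end in the zone (30 of 38), and in amplicons 2, 3 and 4 most begin there (51 of 57, 52 of 55 and 40 of 50).

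Support per library was modest. Amplicons 1 to 4 held 38, 57, 55 and 50 long deletions, with 95% exact Poisson intervals of 26.9 to 52.2, 43.2 to 73.9, 41.4 to 71.6 and 37.1 to 65.9. They were backed by 63, 149, 179 and 140 molecules, as the authors collapsed them, and 119, 390, 406 and 367 read pairs. The PCRs of each amplicon received 9600000 haploid genomes, but the sequenced share of that input is unknown, so no frequency is given. A single molecule supported 71 of the 182 long deletions (39.0%) and a single read pair supported 47. Intervals cover counting error only, since PCR copies are not independent molecules.

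Long deletions had more read pairs behind each molecule than short ones in all 4 libraries. From amplicon 1 to 4 the ratio was 1.89, 2.62, 2.27 and 2.62 for long deletions, and 1.29, 1.30, 1.42 and 1.40 for short ones. A long deletion leaves a shorter PCR product, and the part of product length in this ratio was not tested. Long deletions were 27.6% of all distinct deletions and 26.1% of all molecules, but 38.6% of all read pairs. All 182 were called from split alignments, whereas no deletion called within a single alignment was longer than 100 bp.

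The sizes ran from 200 to 339 bp with a median of 263.5 bp (quartiles 233.25 and 292) and differed little between libraries. The medians were 262, 263, 264 and 265 bp in amplicons 1 to 4, and the longest were 333, 339, 330 and 333 bp. In bins of 20 bp the counts from 200 bp upward were 23, 35, 24, 39, 28, 23 and 10. The deletion just outside the threshold, 33765296 to 33765492 (197 bp), had 1 molecule. The shortest inside were 33764988 to 33765187 (200 bp), with 1 molecule, then 33764820 to 33765020 and 33765037 to 33765237 (201 bp each), with 3 and 4 molecules.

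The product left after the deletion had nearly the same lower limit in every library. The shortest were 242, 240, 247 and 241 bp in amplicons 1 to 4, although the amplicons of 574 to 579 bp had room, 20 bp inside their ends, for deletions of 534 to 539 bp. Whether longer deletions could be amplified, sequenced or called was not tested. The size limits also fix where the second edge can lie. A deletion of 200 to 339 bp with its left edge in the central zone must end between 33765195 and 33765427, so a downstream position of its right edge is no finding, and only the positions within that range are free.

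**Figure D2:**
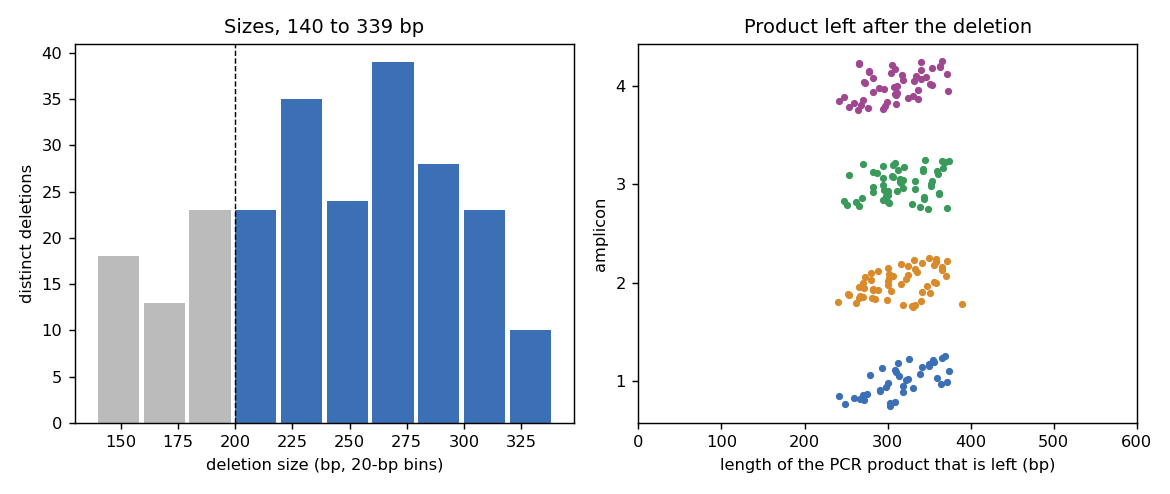
The left panel counts distinct deletions in 20-bp bins of size, grey under 200 bp and blue from 200 bp. The right panel plots the length of PCR product left by each long deletion, 1 point each, with vertical spread within a library only separating points. No point lies below 240 bp in any library.

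Within those ranges the edges were crowded into clusters. Edges at most 3 bp apart were linked, and a linked run with at least 5 distinct long deletions was called a cluster. There were 8 clusters of left edges and 10 of right edges, 66 and 88 bp wide in all, and each side held 134 of its 182 edges (73.6%). Both edges lay in clusters in 113 long deletions (62.1%), 1 edge in 42 and neither in 27. The 182 left edges took 102 positions, of which 13 positions served 72 long deletions. The 182 right edges took 104 positions, of which 16 positions served 79. Random placement was not run, so the clusters are a description.

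The left edge clusters of the central zone peaked at 33765002, 33765023, 33765039, 33765055, 33765061 and 33765088, with 21, 16, 16, 6 and 27 bp between neighbouring peaks. They held 27, 29, 22, 21, 16 and 8 long deletions and 93, 103, 83, 88, 58 and 17 molecules. All but the first were found in amplicons 2, 3 and 4. The first, 33764996 to 33765003, was found in amplicons 1, 2 and 3, and amplicon 4 begins at 33764983, with its nearest left edge of any deletion 23 bp from that end. The other pair of left clusters lay upstream in amplicon 1, at 33764728 to 33764730 and 33764772 to 33764778, with 5 and 6 long deletions. The first of these lies 40 bp from the left end of that amplicon, as near to that end as any of its deletions came.

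The right edge clusters downstream peaked at 33765237, 33765250, 33765276, 33765297, 33765326, 33765332 and 33765355. The gaps between neighbouring peaks were 13, 26, 21, 29, 6 and 23 bp. The largest, 33765292 to 33765317, held 49 long deletions and 179 molecules at 19 positions, and was found in amplicons 2, 3 and 4. The next, 33765272 to 33765279, held 18 long deletions and 92 molecules. The cluster at 33765354 to 33765356 was 3 bp wide and held 11 long deletions, 8 of them ending at 33765355, in amplicons 3 and 4. The remaining 4 held 5 to 16. The other 3 right clusters were small and found in amplicon 1 only, at 33764995 to 33765001, 33765048 to 33765053 and 33765057 to 33765063, with 5, 6 and 8 long deletions. Of the 30 upstream deletions 18 ended in them and 12 in no cluster.

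**Figure D3:**
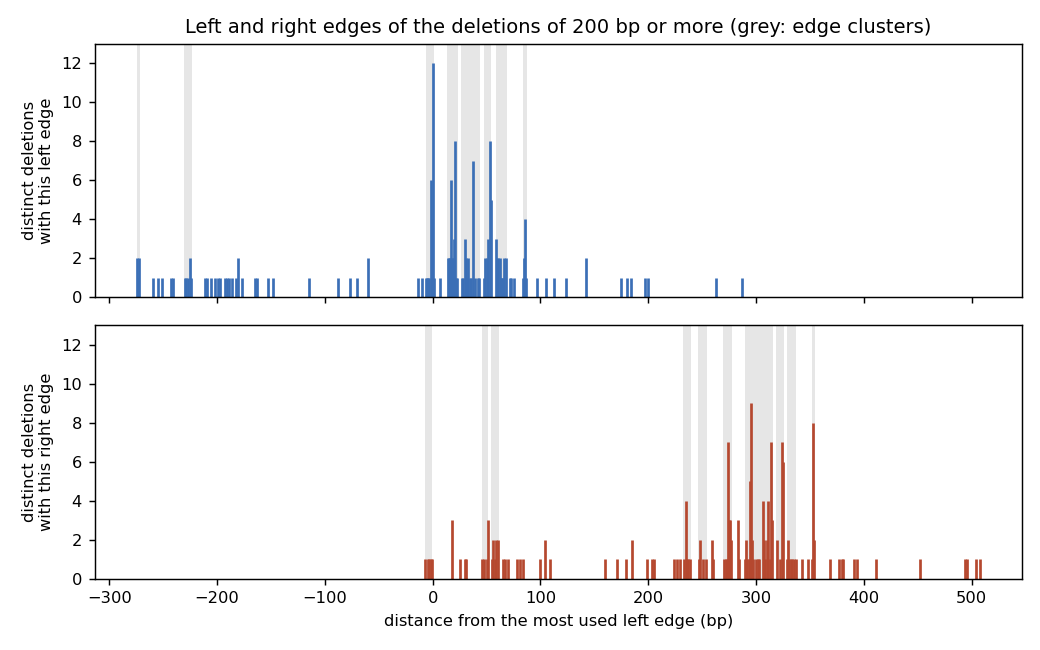
Bars count the distinct long deletions that used each left edge (top) or right edge (bottom), by distance in bp from the most used left edge, with edge clusters in grey. The tallest left bar stands at 12 deletions and the tallest right bar at 9.

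The partners of the most used edges were spread over wide ranges. Deletions were merged by their edges, so each deletion at an edge has a partner of its own, and only the positions of the partners are informative. The left edge 33765002 began 12 long deletions, with right edges from 33765229 to 33765331 and 52 molecules. The left edge 33765023 began 8, with right edges from 33765231 to 33765355 and 26 molecules, and 33765055 began 8, with right edges from 33765277 to 33765356 and 52 molecules. On the other side, 33765297 ended 9 long deletions with left edges from 33765000 to 33765064 and 50 molecules. The right edge 33765355 ended 8, from left edges between 33765023 and 33765144. The edges 33765276, 33765316 and 33765326 ended 7 each, with left edges spread from 33765001 to 33765115. Edges of both kinds that at least 3 long deletions used met each other in 40 long deletions.

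The clusters were paired in many combinations. Of 80 possible pairs of left and right clusters 35 were seen. Between the 6 left clusters of the central zone and the 7 downstream right clusters, 35 of 42 pairs can be spanned by 200 to 339 bp, and 31 of those 35 were seen, with 106 long deletions. The limit of 339 bp is the longest deletion of these same data, so pairs that need a longer one were left out of the 35. The fullest pair joined the clusters peaking at 33765002 and 33765297, 296 bp apart counting both peaks, with 11 long deletions and 40 molecules. The same right cluster was joined to those at 33765039 (10 long deletions, 259 bp), 33765055 (10, 243 bp), 33765023 (9, 275 bp) and 33765061 (5, 237 bp). The pair of 33765023 and 33765326 also held 5, at 304 bp. The first 5 pairs held 45 long deletions (24.7%). The fullest pair led by 1 deletion only. Without amplicon 2 the 5 fullest pairs held 15.6%, and the fullest had a spacing of 259 bp.

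Left and right edge positions were correlated to a degree that depended on which deletions were taken. Among the 127 downstream deletions the standard deviation over deletions was 26.4 bp for left edges, 37.0 bp for right edges and 35.1 bp for sizes. The correlation across deletions of left and right edge positions was 0.43 (Pearson) and 0.33 (Spearman). The limits of 200 and 339 bp tie the edges to each other in this set. The 118 of them that ended in the span of the downstream clusters, 33765235 to 33765356, had a correlation of 0.28 (Pearson) and 0.21 (Spearman). Adding the 9 short deletions between the same zone and span gave 127 deletions of 166 to 339 bp. Their correlation was 0.14 (Pearson) and 0.09 (Spearman), and sizes varied more than either edge, with standard deviations of 26.1 bp for left edges, 32.4 bp for right edges and 38.7 bp for sizes. Deletions that share an edge are not independent, so the correlations carry no test. For the 6 left clusters in order, the medians of the right edges were 33765293, 33765297, 33765297.5, 33765313, 33765296.5 and 33765355. The last was furthest from the others, and its cluster held 8 long deletions. The limit of 200 bp also sets the first possible right edge furthest downstream for that cluster. Median sizes of the 6 clusters were 294, 277, 265.5, 262, 234 and 269 bp.

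**Figure D4:**
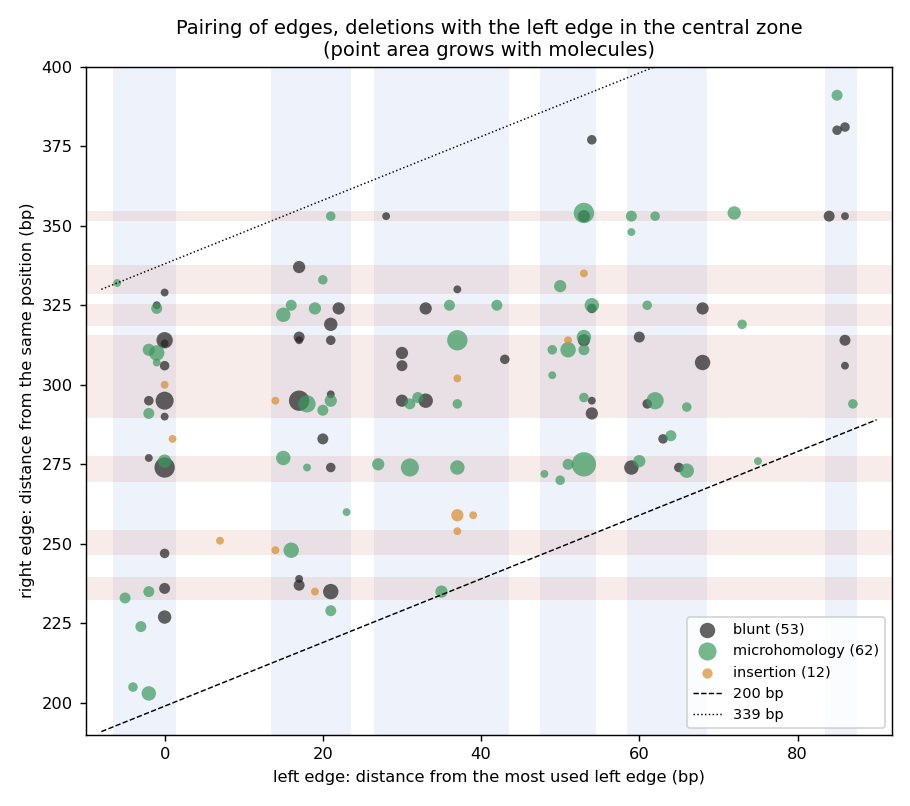
Each point is 1 of the 127 long deletions with the left edge in the central zone, by left and right edge in bp from the most used left edge, coloured by join, with area growing with molecules. Shaded columns and rows are the edge clusters, and the lines mark sizes of 200 and 339 bp. Points of each of the 6 columns fall in several of the 7 shaded rows.

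Short deletions shared the most used edges of the central zone and seldom the peaks downstream. Of the 477 short deletions, 371 (77.8%) had at least 1 edge in the central zone and 184 (38.6%) had both, against 157 of 182 long deletions (86.3%) with 1 edge there. The left edge 33765002 began 35 short deletions, 33765023 began 12, 33765055 began 10 and 33765039 began 4. The whole clusters around these 4 held 80, 59, 43 and 72 left edges of short deletions. The downstream peaks 33765297, 33765276, 33765326 and 33765355 ended 1, 1, 0 and 1 short deletions. The whole clusters around these peaks held 9, 10, 0 and 1 right edges of short deletions. In the 122 bp from 33765235 to 33765356 lay 124 right edges of long deletions, against 45 right and 25 left edges of short ones, with 15 short deletions wholly inside. A long deletion from the zone has to end downstream. A short one that begins in the zone is too short to reach 33765297, 33765326 or 33765355. The size limit thus set much of this contrast, and the counts describe positions and were not tested against each other. At the level of single bases, 68 of the 124 downstream right edges (54.8%, exact interval 45.7 to 63.8) lay at a base that some short deletion also used as an edge, and 45 of the 122 positions (36.9%) were such bases. Within 2 bp the shares were 81.5% of edges and 88.5% of positions. The 124 edges share 55 positions, so the interval is too narrow. Counting each position once, 27 of 55 (49.1%) were bases that a short deletion also used, and 48 of 55 (87.3%) lay within 2 bp of one. Over both edges of all long deletions, 312 of 364 (85.7%) lay within 2 bp of a short deletion's edge, against 72.9% of the positions open to them. In the central zone 94.7% of all positions were edges of short deletions, which leaves no room for a difference there.

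Separate PCRs recovered some long deletions repeatedly. The DNA of all libraries came from 3 mice, and whether a recurring deletion arose once or more often was not tested. Of the 182, 168 were found in 1 library, 10 in 2 and 4 in 3. All 14 recurring ones were among the 127 downstream deletions. Amplicons 3 and 4 could not show upstream deletions, and amplicon 2 had 0 of them. All upstream deletions began left of every deletion called in amplicon 2. Whether amplicon 2 could have shown those that lie within it was not tested. Amplicons 2 and 3 shared 8 long deletions inside their overlap (14.3% of 56 and 15.7% of 51), amplicons 3 and 4 shared 7 (12.7% of 55 and 15.2% of 46), and amplicons 2 and 4 shared 6 (11.3% of 53 and 13.95% of 43). Short deletions in the same overlaps were shared at 18.5% and 23.4%, 13.01% and 16.0%, and 12.3% and 18.02%. Amplicons 1 and 2 shared 0 long deletions of 19 and 15, against 33 short ones (24.8% of 133 and 19.3% of 171). Most of the 19 began left of every deletion called in amplicon 2. With amplicon 1, amplicon 3 had 1 long deletion in common (3 and 8 lay in the overlap) and amplicon 4 had 0 (2 and 1 lay there). The differences between long and short deletions were not tested. Over the whole stretch 7.69% of long and 19.7% of short deletions recurred, but fewer amplicons cover both edges of a long one. Recurring long deletions had a median of 8 molecules over all libraries and the others 2. Counting deletions whose edges both lay within 3 bp as shared raised the number found in more than 1 library from 14 to 59 (32.4%).

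The joins of the best supported long deletions, and of 3 with long microhomology and 1 molecule each, are shown with 20 bases kept on either side. They are read 5′ to 3′ on the plus strand. Capitals mark the microhomology, and a sequence with no capitals is a blunt join. The first 4 are those found in 3 libraries, the next 6 complete the 10 with the most molecules, and the last 3 are the one with 8 bp of microhomology and 2 of the 3 with 7 bp.
33765055-33765277: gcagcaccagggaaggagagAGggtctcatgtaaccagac
33765019-33765297: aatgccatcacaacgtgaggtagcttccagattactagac
33765033-33765276: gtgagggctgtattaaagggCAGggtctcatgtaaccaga
33765020-33765296: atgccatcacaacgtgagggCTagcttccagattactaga
33765002-33765276: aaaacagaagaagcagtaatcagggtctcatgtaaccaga
33765055-33765356: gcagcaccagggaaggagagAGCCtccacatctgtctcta
33765039-33765316: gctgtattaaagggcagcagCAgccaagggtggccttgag
33765002-33765297: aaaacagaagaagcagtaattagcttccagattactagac
33765064-33765297: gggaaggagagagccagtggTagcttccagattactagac
33765002-33765316: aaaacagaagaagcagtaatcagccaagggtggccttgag
33765182-33765413: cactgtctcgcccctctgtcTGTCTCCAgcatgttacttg
33764813-33765048: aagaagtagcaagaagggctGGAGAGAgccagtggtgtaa
33764821-33765086: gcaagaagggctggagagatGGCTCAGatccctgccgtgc

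The deletion of 33765055 to 33765277 (223 bp, 2 bp of microhomology) had the most molecules, 19, with 4, 8 and 7 in amplicons 2, 3 and 4. The blunt deletion of 33765019 to 33765297 (279 bp) had 5, 6 and 2 molecules in the same libraries. The deletion of 33765033 to 33765276 (244 bp) had 2, 5 and 3, and that of 33765020 to 33765296 (277 bp) had 4, 3 and 2. These 4 were listed for being found in 3 libraries, and only those 3 libraries cover both edges. Their counts were low. The others with the most molecules were seen in 1 or 2 libraries. The blunt deletion of 33765002 to 33765276 (275 bp) had 4 molecules in amplicon 2 and 9 in amplicon 3, while 33765039 to 33765316 (278 bp) had 7, 0 and 6 in amplicons 2, 3 and 4. The deletion of 33765064 to 33765297 (234 bp) had 6 in amplicon 3 and 3 in amplicon 4. The remaining 3 were seen in 1 library each. They were 33765055 to 33765356 (302 bp) with 13 molecules in amplicon 4, 33765002 to 33765297 (296 bp) with 10 in amplicon 2 and 33765002 to 33765316 (315 bp) with 8 in amplicon 3. Amplicon 3 also covers both edges of 33765055 to 33765356 and had 0 molecules of it. Amplicons 2 and 3 both cover the last pair, and each deletion was seen in only 1 of them. The deletion with 8 bp of microhomology had 1 molecule, in amplicon 3. The 3 with 7 bp, of which 33764825 to 33765057 is not shown, had 1 molecule each, in amplicon 1.

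Long deletions were joined by microhomology in 96 cases (52.7% of 182, exact interval 45.2 to 60.2), bluntly in 69 (37.9%, 30.8 to 45.4) and with inserted bases in 17 (9.34%, 5.54 to 14.5). Of the microhomologies 33 were of 1 bp, 30 of 2 bp, 17 of 3 bp and 16 of 4 to 8 bp. The deposited microhomology matched the rebuilt sequence in 165 of 165 joins without insertion. Blunt joins place an edge without ambiguity, whereas a join with microhomology can be placed at several bases and is given at its leftmost. At 33765002, 10 of 12 long deletions were blunt, at 33765019 all 6 and at 33765088 all 4. At 33765055, 2 of 8 were blunt and 5 had microhomology.

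The presence of microhomology did not differ detectably between long and short deletions. Among joins without insertion it was present in 25 of 37 long and 81 of 135 short deletions of amplicon 1 (67.6% and 60.0%), 26 of 49 and 119 of 179 in amplicon 2 (53.1% and 66.5%), 28 of 49 and 79 of 141 in amplicon 3 (57.1% and 56.0%), and 30 of 48 and 70 of 115 in amplicon 4 (62.5% and 60.9%). In two-sided Fisher's exact tests, 8 in all over both kinds of join, the Benjamini-Hochberg adjusted p was 0.720, 0.254, 1 and 1. The differences had both signs, and those of amplicons 2, 3 and 4 changed sign under other settings. The intervals of the shares were wide, 38.3% to 67.5% for the long deletions of amplicon 2 for example, and a moderate difference was not detectable with these numbers.

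Microhomology of 3 bp or more was present in 33 of 165 long deletions without insertion (20.0%, exact interval 14.2 to 26.9) and in 58 of 448 short ones (12.9%, 9.98 to 16.4). The difference was 16.4 percentage points in amplicon 1 (two-sided Fisher's exact test, p = 0.0256, adjusted p = 0.102) and 0.878, -3.27 and 5.00 points in amplicons 2, 3 and 4, and none passed after adjustment. Among the long deletions it was present in 15 of 115 downstream deletions (13.04%, 7.49 to 20.6), 10 of 29 upstream ones (34.5%, 17.9 to 54.3) and 8 of 21 with neither edge in the zone (38.1%, 18.1 to 61.6). These classes were set after the edges were seen, so they were not tested. They differ in support too. Downstream deletions had 3.55 molecules each on average, with 25.2% on a single molecule, upstream ones 1.63 with 60.0%, and those with neither edge in the zone 1.24 with 84.0%.

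**Figure D5:**
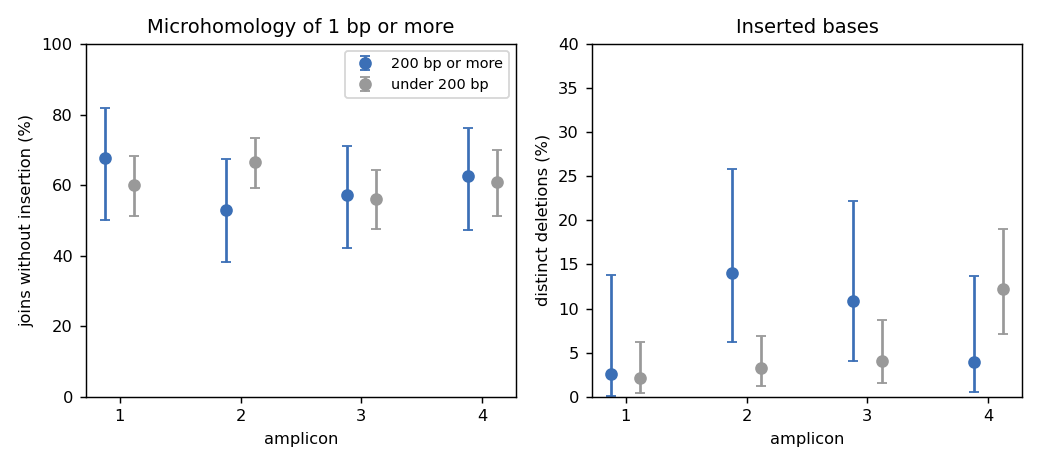
Points give the share of joins with microhomology (left) and of deletions with inserted bases (right) for long deletions in blue and short ones in grey, by amplicon. Bars are 95% exact Clopper-Pearson intervals. The intervals of long and short deletions overlap in each library, least for insertions in amplicon 2 (14.04% against 3.24%).

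Inserted bases were more frequent in long than in short deletions of amplicon 2, and the test was not passed in the other libraries. They were found in 8 of 57 long and 6 of 185 short deletions of amplicon 2, a difference of 10.8 percentage points (Fisher's exact test, adjusted p = 0.0443). In amplicons 1, 3 and 4 they were found in 1 of 38, 6 of 55 and 2 of 50 long deletions, and in 3 of 138, 6 of 147 and 16 of 131 short ones. The adjusted exact p of these 3 was 1, 0.254 and 0.324, and in amplicon 4 the difference had the opposite sign. Whether the libraries differ was not tested. Of the 17 long deletions with an insertion, 16 rested on 1 molecule and 11 on 1 read pair, and none was found in 2 libraries. With at least 2 read pairs the difference in amplicon 2 was 6.09 points (adjusted exact p = 0.271), and with at least 3 it was 2.44 points (adjusted exact p = 1). From 250 bp upward it was 3.26 points (adjusted exact p = 0.596). Distinct deletions share edges and are not fully independent, so these p-values may be too small.

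The longer insertions matched nearby sequence in the opposite orientation. In 12 long deletions the insertion was of 1 to 5 bp, too short to place, including 1 deletion also seen without its insertion. In the other 6 it was of 8 to 20 bp, and each of these 6 matched the rebuilt stretch at exactly 1 place, on the minus strand. None of the 6 matched the plus strand. The joins are shown with 15 kept bases on either side in lower case and the inserted bases in capitals, since their sequence is the finding.
33764988-33765187: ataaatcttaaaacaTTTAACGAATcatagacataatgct
33765009-33765253: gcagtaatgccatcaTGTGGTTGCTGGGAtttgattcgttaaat
33765039-33765261: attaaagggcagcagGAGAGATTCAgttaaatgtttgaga
33765039-33765304: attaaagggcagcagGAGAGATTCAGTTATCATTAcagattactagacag
33765041-33765261: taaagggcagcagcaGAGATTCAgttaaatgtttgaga
33765177-33765396: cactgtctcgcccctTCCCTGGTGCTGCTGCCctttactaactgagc

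The matching bases lay outside the deletion in all 6 cases, to its left in 5 and to its right in 1. In the 5 they ended 114 to 130 bp before the left edge, and in the other they began 71 bp after the right edge. The 3 insertions that begin GAGAGATTCA or GAGATTCA matched the same place, and the longest of them, 20 bp, matched chr1:33764906-33764925, whose plus strand reads taatgataactgaatctctc. The 17-bp insertion matched chr1:33765031-33765047, inside the central zone, whose plus strand reads ggcagcagcaccaggga. Each match ran on into the kept bases on both sides of the insertion, by 1 to 5 bp on the left and 2 to 5 bp on the right, for 13 to 28 bp in all. The right edge 33765261 occurred in 2 of the 6, and it also ended 2 short deletions with insertions, all in amplicon 2. Of the 6, 5 came from amplicon 2 and 1 from amplicon 3, with 9 molecules in all, 4 of them of the deletion of 33765039 to 33765261. Whether the insertions arose in the animal, in the PCR or in sequencing was not tested.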

How the data were processed

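The members and the rules for clusters, lists and tests were chosen with earlier results of these data known. The authors deposited 1 table per amplicon with whole counts of read pairs, molecules and molecule types per junction, and with positions and sizes in bp, per the file headers. fastp 0.23.2, BWA 0.7.17 and mm10 were used, per the submitters' processing notes. The sources used here do not name the junction caller, its filters or the way molecules were collapsed. Undeleted reads were not analysed here, and the depth is unknown.

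The region was rebuilt as the most frequent read base, with at least 151 reads at every base, 99.9% of bases matching and 0 differences between amplicons. In 1 row the start 33765057 did not match the size, and the read gave 33765051. A merged deletion takes the join with most molecules. Edges were linked within 3 bp and clusters needed 5 deletions. Inserted bases of 8 bp or more were searched on both strands. Shares have exact Clopper-Pearson intervals, counts exact Poisson intervals (95%), and joins were compared by Fisher's exact test per library. p-values cover the spread between deletions of 1 library, not between animals. The planned rule for named deletions took the 10 with most molecules, those in at least 3 libraries, the extremes of size, microhomology and insertion, cluster peaks and the 5 fullest pairs; single edges used by at least 3 deletions, the central zone and the insertion matches were added after the values were seen. Alternatives covered size, read support, edge placement, linking, weighting, distance from the ends and leaving out each library. Sequence rebuilding, microhomology lengths, edge clustering and Fisher's exact test were tried on simulated data. The clustering there used planted edges and, for right edges, a minimum of fewer than 5 deletions. Pairing, sharing between libraries and the search of inserted bases were not tried in this way. Computation used scipy 1.17.1, numpy 2.4.6 and pandas 2.3.3 under Python 3.11.15, and plots used matplotlib 3.10.9.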

Additional observations from a re-analysis of the deposited data

How the results depend on the processing

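No paired analysis was possible because each amplicon is 1 library and the groups share no replicate. Of 196 values under other settings, 142 held (same side of the test's threshold, inside the interval or, for counts, within 1.5 times), 38 moved, 3 no longer passed their test, 1 newly passed and 12 changed sign. Leaving out 1 library cannot change the difference or the unadjusted p of a test within another library, so those values among the 142 held by design. The cause was not tested except where the setting itself counts fewer or other units. A minimum of 250 bp gave 112 long deletions and at least 3 read pairs gave 114. The 18 clusters became 9 with at least 10 deletions each. The share of edges in clusters (73.6%) was 78.9% with at least 3 read pairs, 57.4% with clusters of at least 10, 60.4% and 81.9% with edges linked within 1 and 5 bp, 84.7% by molecules, and 67.3% to 81.7% without 1 library. The share in the 5 fullest pairs (24.7%) was 36.6% from 250 bp, 11.5% and 53.3% with linking within 1 and 5 bp, 32.4% by molecules, and 15.6% to 31.0% without 1 library. The spacing of the fullest pair (296 bp) was 275 bp with at least 2 read pairs and with linking within 1 or 5 bp, 262 bp with at least 3 read pairs, 261 bp with edges at their rightmost position, and 259 to 296 bp without 1 library. The median size was 249 bp from 150 bp and 282.5 bp from 250 bp. The share of edges within 2 bp of a short deletion's edge (85.7%) was 92.9% from 250 bp, 75.6% and 69.7% with at least 2 and 3 read pairs, 90.9% at the rightmost position, 69.2% at identical positions, 96.2% within 5 bp, and 80.9% to 91.0% without 1 library. Microhomology (58.2% of joins without insertion) was 38.2% at 2 bp or more and 20.0% at 3 bp or more. Insertions (9.34%) were 4.44% and 0.877% with at least 2 and 3 read pairs and 3.77% by molecules. Long deletions shared within 3 bp came to 32.4%.

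Differences in insertions, long minus short, were 8.51 points in amplicon 1 from 150 bp (adjusted exact p = 0.0250, newly passing). In amplicon 2 they were 3.26 points from 250 bp, 6.09 with at least 2 and 2.44 with at least 3 read pairs, no longer passing. In amplicon 3 the value was -1.06 with at least 3 read pairs. Differences in microhomology changed sign, without passing a test, in amplicon 2 at 2 bp or more (2.85) and 3 bp or more (0.878); in amplicon 3 from 150 bp (-1.92), from 250 bp (-7.50), at 3 bp or more (-3.27) and with at least 3 read pairs (-4.90); and in amplicon 4 from 150 bp (-0.0958), from 250 bp (-12.0), with at least 2 (-2.83) and 3 read pairs (-7.26) and against short deletions of up to 100 bp (-4.92). Of the 17 long deletions with an insertion, 16 rested on 1 molecule.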

Other observations

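Insertions of 8 bp or more in short deletions were searched in the same way as those of the long ones. Of 16 entries, counted per library, 12 matched the rebuilt stretch on the minus strand, 0 on the plus strand, and 4 matched neither strand. The same 10-bp insertion in the deletion of 33765268 to 33765379 was counted in both amplicon 3 and amplicon 4. Of the 4 without a match, from 1 library (amplicon 3), the longest was of 51 bp. Among them were nearly identical insertions of 33 bp at the same edges, 33765003 and 33765097. The search was chosen after the insertions had been seen, each match is exact over the inserted bases, and no random sequences were searched. Several of these insertions share a template, so they are not independent.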
